A study of Mus musculus with 8 samples.

Results

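The genes described here are 43 genes that cells use to copy their DNA and to divide, measured in 4 groups of mouse alveolar macrophages, the phagocytes that live in the airspaces of the lung. They were taken by exact gene symbol from the 37310 genes of a deposited count table, and every one of the 43 had enough counts to be tested among 14537 tested genes. By textbook role, 19 belong to DNA replication, 6 to entry into S phase and 18 to mitosis. The tested material comprised 8 RNA-seq libraries, 2 for each group, and each library was a pool of 3 mice per the labels. The pools are the replicates, so the p-values measure the spread between pools.

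Expanded alveolar macrophages (exAM) were wild-type C57BL/6 cells kept in culture for 2 months, and they were not sorted. Transplanted expanded cells (texAM) were exAM of C57BL/6 origin put into the airways of C57Bl/6-Ly5.1 recipients and recovered 4 months later as CD45.2+ cells. Transplanted cells with no expansion in their label (tAM), also C57BL/6, spent 4 months in the recipient lung and were recovered as CD45.2+ cells. Resident cells (HostAM) were the CD45.1+ macrophages of C57Bl/6-Ly5.1 mice. Cells of all 3 lung groups were sorted from whole lung as SiglecF+ CD11c+ singlets, and the labels' protocol gives an age of 8 weeks both for the mice that gave the cells and for the recipients. The labels do not say whether HostAM came from recipients of cells or of PBS. The labels name no other allele than the CD45 variants that tell donor from host. Culture and the lack of a sort go together in exAM, so the effects of these 2 cannot be told apart.

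A dividing cell first licenses its replication origins, when Cdc6 and Cdt1 load the ring-shaped MCM helicase onto DNA, and then fires them in S phase, when Cdc45 and GINS join the helicase and the polymerases begin synthesis. Transcription factors of the E2F family switch on the genes for this machinery and for nucleotide supply, while the mitosis genes are switched on later, in G2 phase, through promoters with CCAAT boxes and a cell cycle homology region (CHR). Mitosis itself is driven by cyclin B with CDK1 and ended when the anaphase-promoting complex with Cdc20 destroys cyclin B. Alveolar macrophages are known for keeping their numbers in the adult lung by local division, and for dividing in culture when given growth factors.

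The summed level of the replication genes was lower in both libraries of cultured cells than in every lung library. That of the mitosis genes lay within the lung range, and below it with Mki67 left out. The replication genes summed to 923 and 722 CPM (counts per 1000000 counts of the scaled library) in exAM, 1171 and 1108 CPM in texAM, 1154 and 1133 CPM in tAM and 1292 and 1106 CPM in HostAM. Both exAM libraries also lay below all 6 lung libraries when scaled by library size, by DESeq2 size factors or on thinly covered genes (under 0.1 counts per base of transcript), where the nearest values were 1027 CPM in exAM and 1046 CPM in texAM. The mitosis genes summed to 1814 and 1598 CPM in exAM, 1734 and 1597 CPM in texAM, 1644 and 1613 CPM in tAM and 1851 and 1740 CPM in HostAM, with exAM inside the range of the lung libraries. That place depended on the scaling: by library size the mitosis sums were 1618 and 1457 CPM in exAM, below all lung libraries, and on thinly covered genes they were 2018 and 1755 CPM in exAM, the higher above all of them. By DESeq2 size factors the higher exAM library had 1843 CPM, against 1841 CPM in the highest lung library. The S phase entry genes summed to 238 and 226 CPM in exAM, 330.2 and 351 CPM in texAM, 366 and 372 CPM in tAM and 392 and 381 CPM in HostAM. In bulk RNA, fewer cycling cells and less of each transcript per cycling cell cannot be told apart.

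The ratio of the mitosis sum to the replication sum was 1.96 and 2.21 in exAM, 1.48 and 1.44 in texAM, 1.43 and 1.42 in tAM and 1.43 and 1.57 in HostAM. The exAM libraries stood above all 6 lung libraries in this ratio. Much of the mitosis sum was Mki67, which made up 46.0% and 47.6% of it in exAM and 34.6% to 37.8% in the lung libraries. Without Mki67 the mitosis sum was 980 and 837 CPM in exAM and 1004 to 1185 CPM in the lung libraries. Both exAM libraries then lay below all 6 lung libraries. With Mki67 left out the ratio was 1.06 and 1.16 in exAM, 0.935 and 0.942 in texAM, 0.926 and 0.886 in tAM and 0.917 and 1.01 in HostAM, and both exAM libraries still stood above the other 6. These sums carry no test, because the genes were listed with earlier results of these data known. They hold only the listed genes. Among other genes of these processes, given below, the median log2 fold change of exAM over tAM was -0.34 for mitosis and -0.24 for replication.

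**Figure D1:**
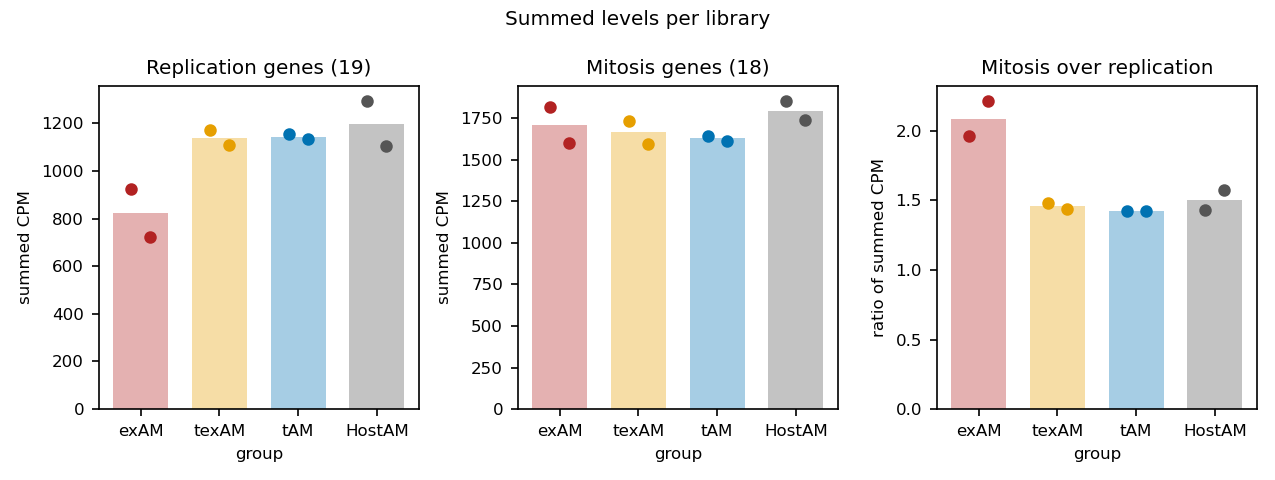
Summed CPM of the 19 replication genes (left) and the 18 mitosis genes (middle), and the ratio of the mitosis sum to the replication sum (right), by group; points are the 2 libraries and bars are their mean. The exAM replication sums of 923 and 722 CPM lie under all lung libraries, the mitosis sums overlap, and the exAM ratios of 1.96 and 2.21 lie above the lung range.

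Across all tested genes, 44.7% were called between exAM and tAM by edgeR's quasi-likelihood test (Benjamini-Hochberg adjusted p under 0.05), 21.5% as higher in exAM and 23.2% as lower, with a median log2 fold change of -0.09. Of the 43 genes, 2 were higher in exAM and 17 were lower. By role, among the replication genes 0 were higher and 10 of 19 (52.6%) were lower, with a median log2 fold change of -0.59 and a range from -1.58 to 0.18. Among the mitosis genes 2 of 18 were higher and 5 (27.8%) were lower, with a median of -0.07, and among the S phase entry genes 0 were higher and 2 of 6 were lower, with a median of -0.33. The mitosis share was close to the 23.2% of all genes. Both exAM libraries were below all 6 lung libraries for 19 of the 43 genes, beside 29.7% of all tested genes, and above them for 2, beside 28.1%. Of those below, 10 were replication genes, 2 S phase entry genes and 7 mitosis genes. The count of lower genes was 10 without exAM replicate 2 or without tAM replicate 1, and that of higher genes was 1 without any single library of exAM or tAM. The replication count was 4 without exAM replicate 2, 6 without tAM replicate 1 or tAM replicate 2, 7 when libraries were scaled on thinly covered genes and 12 when they were scaled by library size alone. The replication median stayed below 0 in all of the settings tried, between -0.92 and -0.34, while the mitosis median was 0.10 with scaling on thinly covered genes and 0.04 without exAM replicate 2.

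How thickly a gene was covered went with its apparent direction in this comparison. Among tested genes with 0.01 to 0.05 counts per base of the longest transcript (mean of the 8 libraries), 12% were called higher in exAM than in tAM, and among genes with 0.5 to 1 counts per base 40.6% were. The replication genes lay in the classes 0.01 to 0.05, 0.05 to 0.1, 0.1 to 0.25 and 0.25 to 0.5 counts per base. In that order the share called lower was 25.2%, 25.2%, 24.8% and 23.8%, and the share called higher 12%, 18.1%, 28.4% and 34.3%. Of the replication genes 2 of 2, 2 of 5, 5 of 10 and 1 of 2 were lower in these classes. Mki67 was the only one of the 43 genes above 0.5 counts per base. The part of coverage in these calls was not tested.

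Libraries held 6546272 (exAM replicate 1) to 9154128 (texAM replicate 1) counts. Alveolar macrophage markers were present in every library, with all 10 counted and sums of 3938 to 4577 CPM in exAM and 3005 to 3530 CPM in the lung groups. Counts of some hardly followed depth, with 2077 to 2137 for Lyz2 and 2135 to 2208 for Chil3 over the 8 libraries. Such counts give higher CPM in the smaller exAM libraries. Marco had 3034 and 3053 counts in exAM and 1824 to 2224 in the lung libraries. The part of depth in these sums was not tested. Of the 10 markers, 6 were called higher in exAM than in tAM and 1 lower, beside 21.5% and 23.2% of all tested genes. The lower one was Siglecf, with 228 and 144 CPM in exAM and 279 to 344 CPM in the lung libraries (log2 fold change -0.86, edgeR adjusted p = 0.00246). T lymphocyte markers summed to 34.1 to 66.9 CPM in exAM, with Cd3d, Cd3e and Cd3g at 0, and to 233 to 362 CPM in the lung groups. Cd2 alone gave 195 to 230 CPM of the lung sums. Lung epithelium markers summed to 2.78 to 7.20 CPM in exAM, with 5 of 8 at 0, and to 246 to 548 CPM in the lung groups. Monocyte and neutrophil markers summed to 49.7 to 69.3 CPM in exAM and 128 to 304 CPM in the lung groups, and dendritic cell markers to 53.3 to 74.3 CPM and 93.7 to 180.1 CPM. Against these sums, S100a8 was higher in exAM, with 63.6 and 44.8 CPM beside 11.5 to 41.2 CPM in the lung groups. Clec9a was also higher in exAM, with 64.5 and 48.6 CPM beside 18.4 to 34.9 CPM. Endothelium and stroma markers summed to 49.4 to 59.6 CPM in exAM and 1.28 to 7.53 CPM in the lung groups, while B lymphocyte and eosinophil markers stayed at or under 5.07 CPM. The exAM sum of endothelium and stroma came mainly from Cdh5 (28.6 and 17.8 CPM) and Pdgfra (19.6 and 41.5 CPM). Col1a1, Col1a2 and Col3a1 were at 0 there. The marker sums differed between culture and lung, and their part in the results was not tested.

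**Figure D2:**
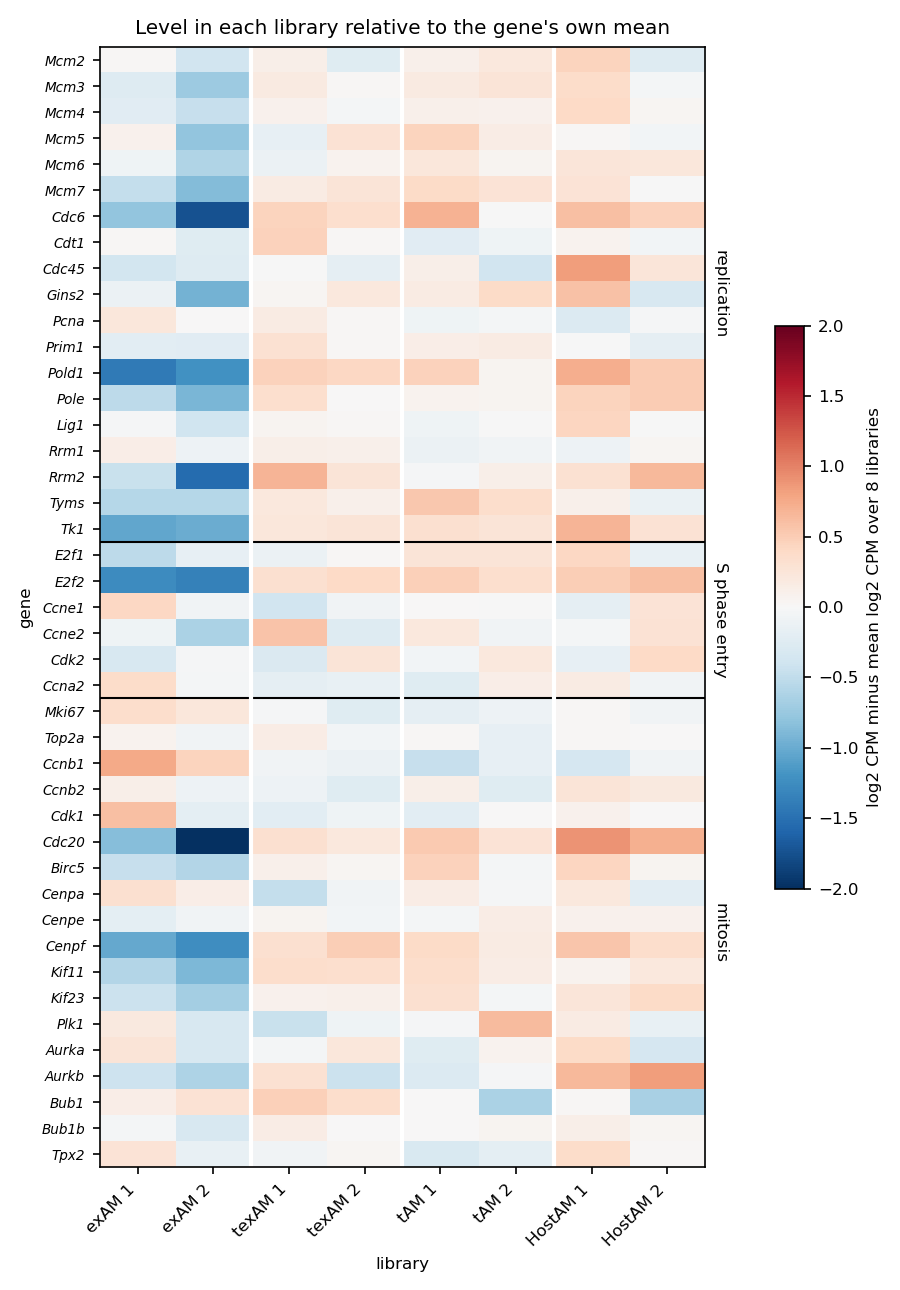
Level of each of the 43 genes in each library, as log2 CPM minus the gene's own mean log2 CPM over the 8 libraries; rows are grouped as replication, S phase entry and mitosis and columns are libraries. Blue cells fill many of the exAM columns in the replication rows, whose summed CPM was 923 and 722 in exAM, and the mitosis rows hold both colours there.

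Promoter sequences of 8 of the genes are shown because E2F words were found mostly in replication genes and CHR words mostly in mitosis genes. RefSeq promoter windows on GRCm38.p6, from 250 bases before to 50 bases after an annotated start, were matched by symbol for 36 of the 43 genes (40 windows). The windows for Mcm4, Gins2, Pole, Ccne2, Ccna2, Aurkb and Tpx2 were not used. Each window was searched on both strands for 4 E2F words (TTTCCCGC, TTTCGCGC, TTTGCCGC and TTTGGCGC), for the CCAAT box (CCAAT) and for 1 CHR word (TTTGAA). An E2F word stood in 8 of 16 replication genes (50%), 2 of 4 S phase entry genes and 1 of 16 mitosis genes (6.25%), against 2.60% of all 27025 genes with a window. A CHR word stood in 2 of 16 replication genes (12.5%) and 12 of 16 mitosis genes (75.0%), against 20.2% of all genes. A CCAAT box stood in 10 of 16 replication genes (62.5%) and 15 of 16 mitosis genes (93.8%), against 41.1% of all genes.

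The first 4 windows belong to replication genes that were lower in exAM, and all 4 hold an E2F word. The windows of Tk1, Tyms and Rrm2, also lower in exAM, held no E2F word and are not printed. Capitals mark E2F words and CCAAT boxes on either strand (a box on the other strand reads ATTGG). In the Mcm6 window 2 E2F words overlap, and in the Mcm7 window an E2F word overlaps a CCAAT box. Mcm7 has a second window in RefSeq, and the one with the E2F words is printed. The windows are chr1:128359656-128359955 (minus strand) for Mcm6, chr5:138171834-138172133 (minus strand) for Mcm7, chr11:98907901-98908200 (plus strand) for Cdc6 and chr7:44548766-44549065 (minus strand) for Pold1.
Mcm6: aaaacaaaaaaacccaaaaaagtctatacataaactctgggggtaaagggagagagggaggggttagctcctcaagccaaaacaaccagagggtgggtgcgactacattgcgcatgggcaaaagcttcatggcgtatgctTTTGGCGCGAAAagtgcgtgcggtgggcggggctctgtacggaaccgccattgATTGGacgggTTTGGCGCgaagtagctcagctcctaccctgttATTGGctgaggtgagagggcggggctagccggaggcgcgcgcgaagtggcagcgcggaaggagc
Mcm7: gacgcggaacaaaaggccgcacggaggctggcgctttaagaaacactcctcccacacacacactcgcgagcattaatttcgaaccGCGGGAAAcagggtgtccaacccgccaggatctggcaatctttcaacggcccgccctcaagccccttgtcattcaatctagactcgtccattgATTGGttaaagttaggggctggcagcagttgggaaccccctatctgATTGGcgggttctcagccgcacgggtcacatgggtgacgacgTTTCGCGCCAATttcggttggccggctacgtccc
Cdc6: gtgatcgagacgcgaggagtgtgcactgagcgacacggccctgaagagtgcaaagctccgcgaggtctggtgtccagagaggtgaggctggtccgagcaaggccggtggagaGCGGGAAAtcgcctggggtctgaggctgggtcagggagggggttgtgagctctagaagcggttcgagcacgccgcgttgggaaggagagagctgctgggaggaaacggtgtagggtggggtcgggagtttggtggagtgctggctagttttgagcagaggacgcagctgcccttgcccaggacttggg
Pold1: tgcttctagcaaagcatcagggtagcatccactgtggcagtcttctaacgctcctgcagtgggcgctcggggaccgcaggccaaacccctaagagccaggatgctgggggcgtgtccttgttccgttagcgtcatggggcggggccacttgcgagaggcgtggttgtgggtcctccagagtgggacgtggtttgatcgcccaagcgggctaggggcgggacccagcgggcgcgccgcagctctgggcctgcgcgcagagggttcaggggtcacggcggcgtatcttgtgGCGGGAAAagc

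The next 4 belong to mitosis genes, of which Cdc20 and Cenpf were lower in exAM and Mki67 and Ccnb1 were higher, and the capitals mark CCAAT boxes and CHR words. The windows are chr4:118437294-118437593 (minus strand) for Cdc20, chr1:189688037-189688336 (minus strand) for Cenpf, chr7:135716330-135716629 (minus strand) for Mki67 and chr13:100786437-100786736 (minus strand) for Ccnb1. Cdc20, Cenpf and Mki67 hold both motifs, and in the Ccnb1 window CCAAT boxes were the only matches.
Cdc20: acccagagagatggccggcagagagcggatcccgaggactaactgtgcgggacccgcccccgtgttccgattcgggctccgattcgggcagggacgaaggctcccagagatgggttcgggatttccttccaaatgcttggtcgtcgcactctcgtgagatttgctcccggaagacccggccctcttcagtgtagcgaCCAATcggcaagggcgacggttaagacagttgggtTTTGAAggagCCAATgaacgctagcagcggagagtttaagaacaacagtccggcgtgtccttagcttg
Cenpf: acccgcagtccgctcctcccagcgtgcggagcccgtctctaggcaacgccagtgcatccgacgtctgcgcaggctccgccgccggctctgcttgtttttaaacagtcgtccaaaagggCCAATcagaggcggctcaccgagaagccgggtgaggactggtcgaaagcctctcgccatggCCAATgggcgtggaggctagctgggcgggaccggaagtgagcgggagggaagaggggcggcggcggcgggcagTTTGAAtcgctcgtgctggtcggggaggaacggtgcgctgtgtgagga
Mki67: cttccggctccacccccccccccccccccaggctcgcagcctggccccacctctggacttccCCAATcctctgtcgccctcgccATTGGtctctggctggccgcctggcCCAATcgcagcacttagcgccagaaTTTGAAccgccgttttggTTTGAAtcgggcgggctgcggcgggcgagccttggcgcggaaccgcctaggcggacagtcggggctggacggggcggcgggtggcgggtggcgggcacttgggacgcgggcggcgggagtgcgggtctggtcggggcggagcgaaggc
Ccnb1: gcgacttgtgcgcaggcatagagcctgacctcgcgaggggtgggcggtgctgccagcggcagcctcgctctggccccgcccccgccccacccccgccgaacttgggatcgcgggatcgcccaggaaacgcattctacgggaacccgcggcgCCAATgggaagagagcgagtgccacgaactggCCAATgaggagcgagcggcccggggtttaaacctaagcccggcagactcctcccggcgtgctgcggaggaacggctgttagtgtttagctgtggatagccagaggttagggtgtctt

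The same motifs were counted by call. Of the 15 genes with a window that were lower in exAM than in tAM, 40.0% held an E2F word and 33.3% a CHR word. Of the 19 genes that were not called, 26.3% held an E2F word and 47.4% a CHR word. Within 100 bases of the annotated start lay 8 of 16 matches to E2F words, 43 of 57 CCAAT boxes and 16 of 20 CHR words. A match is a run of letters and not a shown binding site, and a window without one says nothing about the factor.

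**Figure D3:**
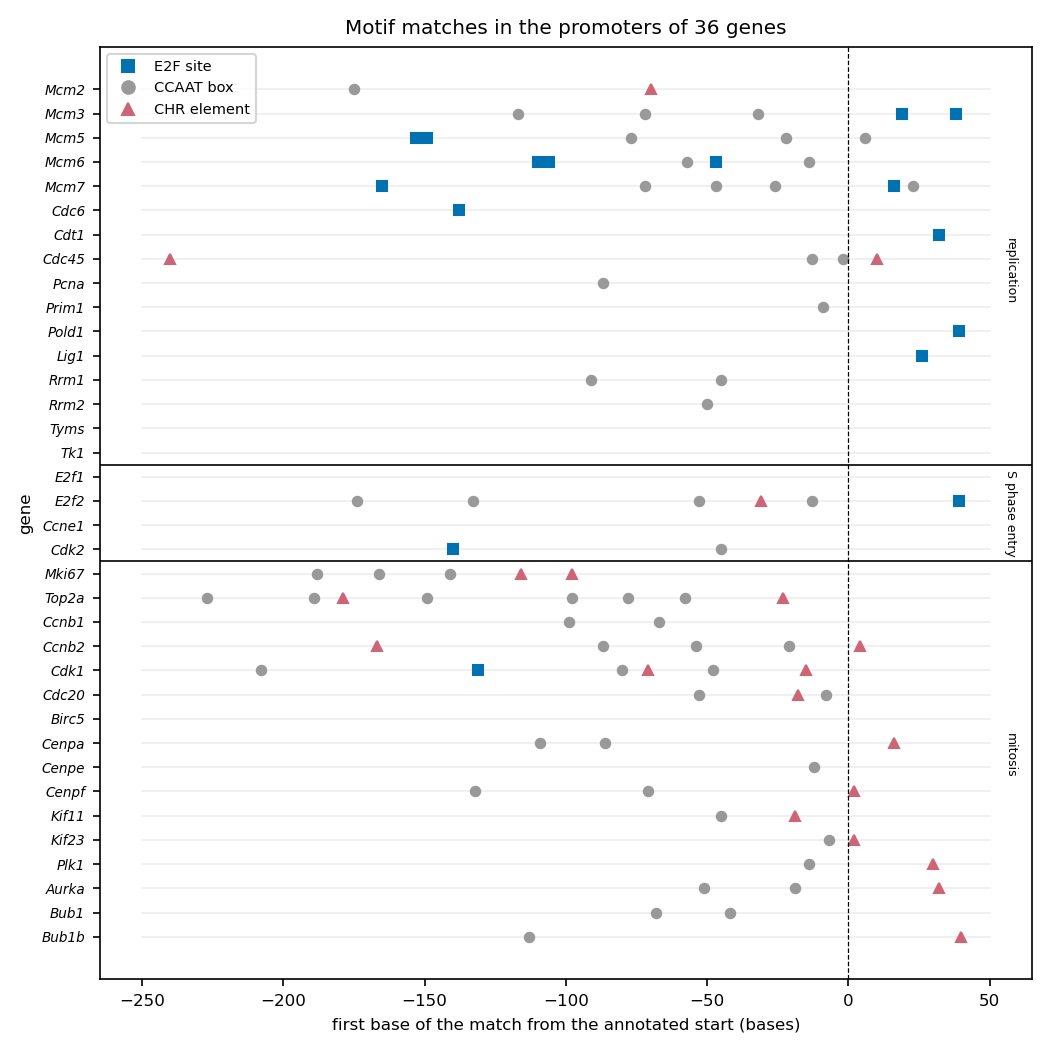
Position of each motif match in the promoter windows of the 36 matched genes, in bases from the annotated start (dashed line), with squares for E2F words, circles for CCAAT boxes and triangles for CHR words. Squares stand in 8 of the 16 replication rows and 1 of the 16 mitosis rows, and triangles in 2 and 12 of them.

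The MCM helicase, built from 1 copy each of Mcm2 to Mcm7, was lower in exAM for 4 of its 6 subunits, and the other 2 had negative fold changes that did not pass the test. Mcm7 (GRCm38 chr5:138164583-138172422, minus strand) had 40.1 and 30.4 CPM in exAM, 62.4 and 66.3 CPM in texAM, 73.01 and 67.6 CPM in tAM and 67.3 and 55.4 CPM in HostAM. Both exAM libraries were below all 6 lung libraries, and the level was 1.995-fold lower in exAM than in tAM (log2 fold change -0.997 ± 0.19 SE, adjusted p = 0.00164). Mcm3 had 75.3 and 54.5 CPM in exAM, 101 and 91.4 CPM in texAM, 102 and 107 CPM in tAM and 116 and 87.8 CPM in HostAM, with exAM again below every lung library (log2 fold change -0.69 ± 0.19 SE, adjusted p = 0.0128).

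For Mcm4 the values were 79.4 and 67.6 CPM in exAM, 98.6 and 90.6 CPM in texAM, 100.3 and 99.1 CPM in tAM and 122 and 96.00 CPM in HostAM, with no overlap between exAM and lung (log2 fold change -0.44 ± 0.16 SE, adjusted p = 0.0409). For Mcm6 they were 91.1 and 63.5 CPM in exAM, 89.1 and 101 CPM in texAM, 114 and 101 CPM in tAM and 114 and 113 CPM in HostAM, and here 1 exAM library lay within the lung range (log2 fold change -0.47 ± 0.17 SE, adjusted p = 0.0473). The call on Mcm3 was lost without exAM replicate 2 and without tAM replicate 2. The call on Mcm4 was lost in 7 of the 16 other settings, among them without any single library of exAM, texAM or tAM. The call on Mcm6 was lost in 10 of them, among them without either library of texAM or tAM, without exAM replicate 2 and without HostAM replicate 2. Mcm2 differed by -0.32 ± 0.24 and Mcm5 by -0.59 ± 0.29 (log2, SE), and their libraries overlapped between culture and lung. Per kilobase of the longest transcript Mcm5 was the lowest subunit in every group, with 9.13 CPM per kb in exAM, 11.8 in texAM, 13.7 in tAM and 10.9 in HostAM. The highest subunit was 2.24 times as high as Mcm5 in exAM, 2.39 times in texAM, 2.22 times in tAM and 2.78 times in HostAM. About 12.6% of the exon bases of Mcm7 are shared with neighbouring genes (Cops6, Ap4m1, Mir25 and Mir93), and whether counting used strand is not stated.

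Of the 2 genes that load the helicase, 1 was lower in exAM. Cdc6, the loading ATPase, had 7.72 and 4.01 CPM in exAM, 18.3 and 16.9 CPM in texAM, 21.7 and 13.3 CPM in tAM and 20.4 and 18.4 CPM in HostAM. Its highest exAM value was below its lowest lung value, and it was 2.996-fold lower in exAM than in tAM (log2 fold change -1.58 ± 0.39 SE, adjusted p = 0.00769), a call lost without exAM replicate 2 and without tAM replicate 1. Cdt1, its partner, had 44.4 and 36.9 CPM in exAM, 59.9 and 44.4 CPM in texAM, 37.1 and 41.1 CPM in tAM and 45.7 and 42.02 CPM in HostAM, and the difference between exAM and tAM was 0.05 ± 0.21 on the log2 scale (SE), which did not pass the test. The exAM and lung values of Cdt1 overlapped.

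Of the helicase activators, Cdc45 had 12.7 and 13.6 CPM in exAM, 16.3 and 14.5 CPM in texAM, 17.6 and 12.5 CPM in tAM and 29.1 and 19.3 CPM in HostAM. The exAM values overlapped those of tAM (log2 fold change -0.20 ± 0.32 SE, adjusted p = 0.629) and lay below both HostAM libraries, a difference that passed the test (log2 fold change -0.88 ± 0.31 SE, adjusted p = 0.0421) but not in 9 of the 16 other settings. Gins2, a GINS subunit, had 45.3 and 25.6 CPM in exAM and 55.02 and 63.8 CPM in tAM and was not called (log2 fold change -0.75 ± 0.32 SE, adjusted p = 0.0773), although the exAM and tAM libraries did not overlap. Its exons share 67.3% of their bases with Gse1 on the opposite strand, so its counts could include reads of that gene.

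The catalytic subunits of both replicative polymerases were lower in exAM. Pold1, of polymerase delta (GRCm38 chr7:44532746-44548849, minus strand), had 6.003 and 6.95 CPM in exAM, 21.9 and 21.3 CPM in texAM, 22.1 and 16.7 CPM in tAM and 26.3 and 22.8 CPM in HostAM. Every lung library held more than 2 times the highest exAM value, and Pold1 was 2.98-fold lower in exAM than in tAM (log2 fold change -1.58 ± 0.29 SE, adjusted p = 0.00150). Pole, of polymerase epsilon, had 30.5 and 23.2 CPM in exAM, 55.02 and 43.8 CPM in texAM, 45.8 and 45.5 CPM in tAM and 59.7 and 62.3 CPM in HostAM, with both exAM libraries under the 6 lung libraries (log2 fold change -0.77 ± 0.20 SE, adjusted p = 0.0110). The call on Pole was lost without exAM replicate 2.

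The sliding clamp, the ligase and the primase were not called. Pcna, the clamp that tethers polymerases, had 89.01 and 76.6 CPM in exAM, 85.8 and 77.7 CPM in texAM, 71.96 and 74.2 CPM in tAM and 62.8 and 75.1 CPM in HostAM. Both exAM libraries lay above both tAM libraries and overlapped those of texAM, and exAM and tAM differed by 0.18 ± 0.15 (log2, SE; adjusted p = 0.364). Lig1, the ligase that seals Okazaki fragments, differed by -0.16 ± 0.18 (adjusted p = 0.493). Prim1, the catalytic primase subunit, had 21.4 and 21.2 CPM in exAM and 27.2 and 27.7 CPM in tAM. Its exAM values were just below all lung libraries, without passing the test (log2 fold change -0.37 ± 0.23 SE, adjusted p = 0.215).

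Of the replication genes, one of nucleotide supply had the smallest adjusted p. Tk1, which salvages thymidine (GRCm38 chr11:117815526-117826092, minus strand), had 35.7 and 36.7 CPM in exAM, 86.03 and 87.5 CPM in texAM, 91.1 and 87.1 CPM in tAM and 117 and 89.7 CPM in HostAM. The lung libraries lay far above both exAM libraries, and Tk1 was 2.46-fold lower in exAM than in tAM (log2 fold change -1.30 ± 0.16 SE, adjusted p = 0.000133). Tyms, which makes thymidylate anew, had 22.98 and 22.9 CPM in exAM, 39.3 and 36.4 CPM in texAM, 49.3 and 43.4 CPM in tAM and 36.5 and 31.1 CPM in HostAM and was 2.02-fold lower in exAM than in tAM (log2 fold change -1.02 ± 0.20 SE, adjusted p = 0.00219), with no overlap.

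Of the 2 subunits of ribonucleotide reductase, 1 was lower in exAM. Rrm2, the small and cell cycle-regulated subunit, had 26.4 and 12.4 CPM in exAM, 57.8 and 43.2 CPM in texAM, 35.3 and 39.1 CPM in tAM and 44.5 and 56.5 CPM in HostAM. It was lower in exAM than in tAM (log2 fold change -0.95 ± 0.32 SE, adjusted p = 0.0346), although the 2 exAM libraries differed by more than 2-fold from each other. All lung libraries lay above them, and the call was lost in 4 of the 16 other settings, which were leaving out either tAM library or exAM replicate 2 and scaling on thinly covered genes. Rrm1, the large subunit, had 107 and 90.6 CPM in exAM, 106 and 105 CPM in texAM, 89.95 and 93.04 CPM in tAM and 90.9 and 101 CPM in HostAM, and exAM and tAM differed by 0.11 ± 0.13 on the log2 scale (SE), which did not pass the test. The exAM and lung values of Rrm1 overlapped.

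Among the genes of S phase entry, E2f2 had the smallest adjusted p of all 43 genes. E2f2, an activating E2F factor (GRCm38 chr4:136172394-136196057, plus strand), had 50.4 and 47.1 CPM in exAM, 151 and 158 CPM in texAM, 167 and 151 CPM in tAM and 169.96 and 182 CPM in HostAM. The lowest lung library held more than 2 times the highest exAM value, and E2f2 was 3.27-fold lower in exAM than in tAM (log2 fold change -1.71 ± 0.12 SE, adjusted p = 2.85e-06), a call that every other setting kept. E2f1, its relative, had 51.1 and 65.5 CPM in exAM, 67.97 and 74.8 CPM in texAM, 87.6 and 88.3 CPM in tAM and 98.5 and 66.2 CPM in HostAM. The highest exAM value was only just under the lowest lung value, and E2f1 was lower in exAM than in tAM (log2 fold change -0.59 ± 0.20 SE, adjusted p = 0.0361), a call lost in 6 of the 16 other settings, among them without either tAM library, without exAM replicate 1 and without texAM replicate 2.

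None of the cyclins and kinases of this group was called (0 of 4, also at an unadjusted p under 0.05). Ccne1 and Ccne2, the E cyclins that start S phase, differed between exAM and tAM by 0.20 ± 0.39 and -0.41 ± 0.38 (log2, SE) and had 6.58 to 18.2 CPM over the 8 libraries. Cdk2, their kinase, differed by -0.25 ± 0.27. Ccna2, which serves both S phase and the approach to mitosis, had 86.6 and 64.8 CPM in exAM and 56.8 and 73.7 CPM in tAM (log2 fold change 0.21 ± 0.19 SE, adjusted p = 0.382). The exAM and lung libraries overlapped for all 4 of these genes.

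**Figure D4:**
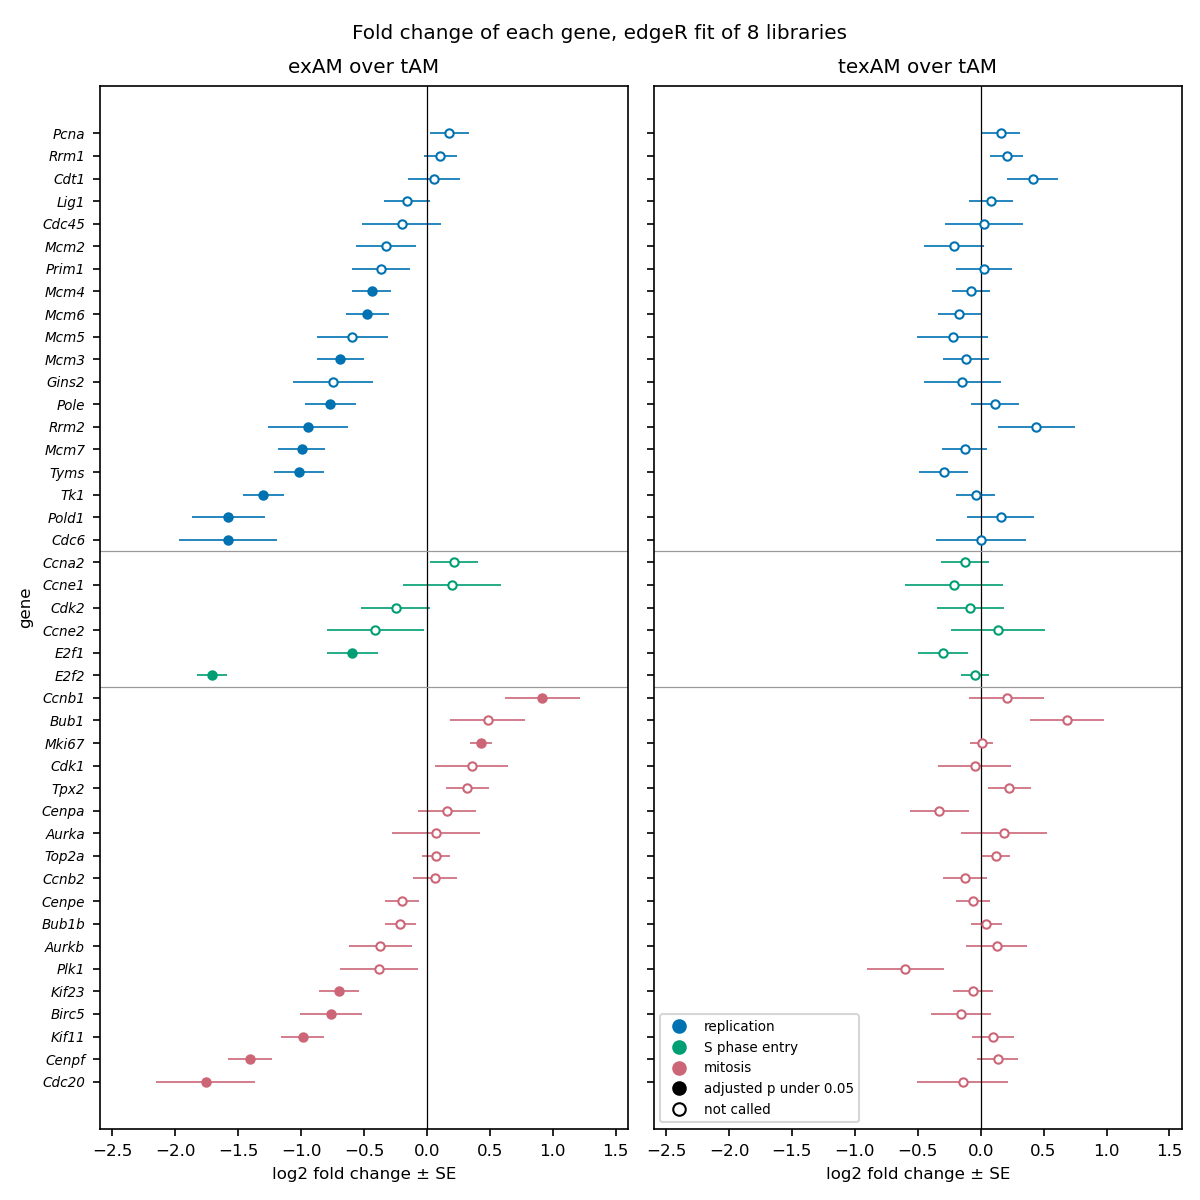
Log2 fold change ± SE of each gene for exAM over tAM (left) and texAM over tAM (right), from edgeR's fit of 8 libraries, ordered within replication, S phase entry and mitosis by the left panel; filled points passed an adjusted p of 0.05. On the left 10 replication genes and 5 mitosis genes lie filled below 0 and Ccnb1 and Mki67 lie filled above it, and on the right no point is filled and all lie between -0.60 and 0.69.

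Among the mitosis genes, 5 were lower in exAM than in tAM, and they act at different stages. Cdc20, the activator of the anaphase-promoting complex (GRCm38 chr4:118432901-118437352, minus strand), had 6.86 and 2.93 CPM in exAM, 15.5 and 14.4 CPM in texAM, 17.9 and 15.05 CPM in tAM and 23.04 and 20.4 CPM in HostAM. All lung libraries lay above both exAM libraries and Cdc20 was 3.38-fold lower in exAM than in tAM (log2 fold change -1.76 ± 0.39 SE, adjusted p = 0.00482). Cenpf, a large kinetochore protein (GRCm38 chr1:189640606-189688086, minus strand), had 29.2 and 25.01 CPM in exAM, 74.3 and 83.5 CPM in texAM, 77.3 and 66.3 CPM in tAM and 87.4 and 75.97 CPM in HostAM. It was 2.65-fold lower in exAM than in tAM (log2 fold change -1.41 ± 0.17 SE, adjusted p = 0.000118), with every lung library more than 2 times the highest exAM library.

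Both spindle kinesins Kif11 and Kif23 were lower as well. Kif11, which pushes the spindle poles apart, had 37.2 and 29.8 CPM in exAM, 71.3 and 70.5 CPM in texAM, 71.4 and 61.4 CPM in tAM and 58.5 and 64.8 CPM in HostAM and was 1.98-fold lower in exAM than in tAM (log2 fold change -0.99 ± 0.17 SE, adjusted p = 0.00117). Kif23, of the central spindle, had 67.1 and 56.4 CPM in exAM, 95.5 and 96.6 CPM in texAM, 112 and 87.9 CPM in tAM and 107 and 117 CPM in HostAM and was 1.63-fold lower (log2 fold change -0.70 ± 0.16 SE, adjusted p = 0.00518). For both kinesins no exAM library reached the lowest lung library. Birc5, a subunit of the chromosomal passenger complex, had 21.1 and 19.5 CPM in exAM, 31.4 and 30.1 CPM in texAM, 40.2 and 28.5 CPM in tAM and 39.2 and 30.3 CPM in HostAM and was 1.69-fold lower in exAM than in tAM (log2 fold change -0.76 ± 0.25 SE, adjusted p = 0.0289). The call on Birc5 was lost in 4 of the 16 other settings, among them without either exAM library and without tAM replicate 1, and that on Kif23 without tAM replicate 1.

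Mki67 and Ccnb1 went the other way. Mki67, which coats mitotic chromosomes and serves as a marker of cycling cells (GRCm38 chr7:135689784-135716361, minus strand), had 835 and 761 CPM in exAM, 639 and 553 CPM in texAM, 575 and 609 CPM in tAM and 666 and 623 CPM in HostAM. Both exAM libraries lay above all 6 lung libraries, and the level was 1.35-fold higher in exAM than in tAM (log2 fold change 0.43 ± 0.09 SE, adjusted p = 0.00348). Under scaling by library size alone the call was lost (adjusted p = 0.0530). Of the tested genes covered as thickly as Mki67, at 0.5 to 1 counts per base of transcript, 40.6% were called higher in exAM than in tAM. Ccnb1, the cyclin that drives entry into mitosis (GRCm38 chr13:100778650-100786570, minus strand), had 23.8 and 19.1 CPM in exAM, 13.4 and 12.9 CPM in texAM, 10.2 and 12.5 CPM in tAM and 11.1 and 13.4 CPM in HostAM. It was 1.89-fold higher in exAM than in tAM (log2 fold change 0.92 ± 0.30 SE, adjusted p = 0.0298) with no overlap, and the call was lost in 6 of the 16 other settings, among them without any single library of exAM or tAM. The pseudogene Ccnb1-ps had 2 to 8 counts per library.

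Cdk1, Ccnb2 and Top2a did not pass the test. Cdk1, the kinase that cyclin B activates, had 32.2 and 18.5 CPM in exAM, 18.4 and 19.96 CPM in texAM, 18.3 and 21.3 CPM in tAM and 22.5 and 21.3 CPM in HostAM. One exAM library was above the lung range and the other within it (log2 fold change 0.35 ± 0.29 SE, adjusted p = 0.347). Ccnb2, the second B cyclin, had 62.3 and 53.3 CPM in exAM and 62.2 and 48.3 CPM in tAM (log2 fold change 0.06 ± 0.18 SE, adjusted p = 0.791), with overlap. Top2a, which untangles sister chromatids, had 225 and 204 CPM in exAM and 218 and 191 CPM in tAM (log2 fold change 0.07 ± 0.11 SE, adjusted p = 0.637), and again the libraries overlapped.

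Genes of the spindle checkpoint and the mitotic kinases were spread around 0. Bub1 differed between exAM and tAM by 0.48 ± 0.30 and Bub1b by -0.21 ± 0.12 (log2, SE), and neither was called. Plk1 differed by -0.38 ± 0.31, Aurka by 0.07 ± 0.35 and its activator Tpx2 by 0.32 ± 0.17. Cenpa, the histone variant that marks centromeres, differed by 0.16 ± 0.23, and Cenpe, a kinetochore kinesin, by -0.20 ± 0.14. Bub1b and Cenpe had both exAM libraries below the lung range by a narrow margin, and the other 5 overlapped it.

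Aurkb, the kinase of the chromosomal passenger complex, had its highest values in HostAM. It had 32.9 and 28.6 CPM in exAM, 54.1 and 32.5 CPM in texAM, 36.2 and 43.3 CPM in tAM and 68.7 and 78.9 CPM in HostAM. The HostAM libraries were the highest of the 8, and exAM and texAM overlapped. Aurkb was 2.40-fold lower in exAM than in HostAM (log2 fold change -1.26 ± 0.25 SE, adjusted p = 0.00227), and it was not called between exAM and tAM (log2 fold change -0.37 ± 0.25 SE, adjusted p = 0.247).

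Compared with HostAM instead of tAM, exAM had 2 of the 43 genes higher and 18 lower, beside 44.1% of all tested genes called (20.9% higher, 23.3% lower). Among replication genes 0 were higher and 11 of 19 were lower (median log2 fold change -0.57), and among mitosis genes 2 of 18 were higher and 6 were lower (median -0.18). S phase entry had 0 higher and 1 of 6 lower (median -0.39). Both comparisons use the same exAM libraries, so they are given side by side and not as 2 tests of the same point. Tk1 had a log2 fold change of -1.51 ± 0.16 against HostAM and -1.30 ± 0.16 against tAM, E2f2 -1.85 ± 0.12 and -1.71 ± 0.12, and Cdc20 -2.16 ± 0.39 and -1.76 ± 0.39. Mki67 was 0.31 ± 0.09 and 0.43 ± 0.09, and Ccnb1 0.81 ± 0.30 and 0.92 ± 0.30. Against HostAM the call on Ccnb1 was lost in 14 of the 16 other settings. These were no filter, at least 50 counts, library size scaling, the replicate block, only 4 libraries, the Wald test and leaving out any single library. The call on Tyms was lost in 12 of the 16. It was lost with no filter, scaling on thinly covered genes, the replicate block, only 4 libraries or the Wald test. Leaving out HostAM replicate 1, or either library of exAM, texAM or tAM, also lost it. That on Mki67 was lost in 4 of the 16, with library size scaling, only 4 libraries, or without HostAM replicate 2 or exAM replicate 1. Without exAM replicate 2 the count of lower genes against HostAM was 11, and the 2 higher calls were 1 or 0 without any single library. Without exAM replicate 2, Birc5, Cdc45, Mcm3, Mcm4, Mcm6, Mcm7 and Tyms lost their calls.

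At 4 months after transfer into a lung, the expanded cells had 8 of the 19 replication genes at higher levels than in culture. Of the 43 genes, 13 were higher in texAM than in exAM and 1 was lower, beside 43.7% of all tested genes called (23.2% higher, 20.5% lower, median log2 fold change 0.11). The higher ones were those 8 replication genes, 1 of 6 S phase entry genes and 4 of 18 mitosis genes. Over all genes of each role, called or not, the median log2 fold change was 0.39 for replication, 0.23 for S phase entry and 0.12 for mitosis. Without exAM replicate 2 the count of higher genes was 7, and Cdc20, Cdc6, Kif23, Mcm3, Pole and Tyms lost their calls.

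By size, Pold1 was 3.33-fold higher in texAM than in exAM (log2 fold change 1.74 ± 0.29 SE, adjusted p = 0.000859) and E2f2 3.17-fold higher (log2 fold change 1.67 ± 0.12 SE, adjusted p = 3.59e-06). Cdc20 (log2 fold change 1.61 ± 0.39 SE, adjusted p = 0.00774) and Cdc6 (log2 fold change 1.59 ± 0.39 SE, adjusted p = 0.00771) were each about 3-fold higher. Cenpf (log2 fold change 1.54 ± 0.17 SE, adjusted p = 6.85e-05) and Kif11 (log2 fold change 1.08 ± 0.17 SE, adjusted p = 0.000692) were the other mitosis genes with more than a 2-fold difference. The full set of higher genes also held Rrm2 (1.39), Tk1 (1.26), Pole (0.88), Mcm7 (0.87), Tyms (0.72), Kif23 (0.64) and Mcm3 (0.57), given as log2 fold changes. The single lower gene was Mki67 (log2 fold change -0.42 ± 0.09 SE, adjusted p = 0.00400), and Ccnb1 did not pass the test (log2 fold change -0.71 ± 0.30 SE, adjusted p = 0.0759). The call on Mki67 was lost with scaling by library size alone and without texAM replicate 2. Among the higher genes, the calls on Mcm3 and Tyms were each lost in 4 of the 16 other settings, and those on Kif23 and Pole in 2. Scaling on thinly covered genes lost those on Mcm3, Tyms and Kif23. Leaving out texAM replicate 1 lost those on Mcm3, Tyms and Pole. With scaling on thinly covered genes, Ccna2 (-0.59), Ccnb1 (-0.97) and Cenpa (-0.74, log2 fold changes) were also called lower, for 4 lower genes in all.

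Between the lung groups no replication or mitosis gene was called. For texAM over tAM, 0 of the 43 genes passed edgeR's quasi-likelihood test, beside 0.00688% of all tested genes (1 gene, 0.00688% higher and 0% lower), and DESeq2's Wald test also called 0 of the 43. At an unadjusted p under 0.05 there was 1 of the 43, beside 7.84% of all tested genes. The log2 fold changes ran from -0.60 (Plk1) to 0.69 (Bub1), with a median size of 0.14 beside a median SE of 0.20. The SEs ran from 0.09 to 0.39, and the lack of calls does not show that the groups are alike.

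Between the 2 transplanted groups, Tk1 differed in texAM over tAM by -0.04 ± 0.15, E2f2 by -0.04 ± 0.11 and Mki67 by 0.01 ± 0.09 (log2, SE). Cdc20 differed by -0.14 ± 0.36, Cenpf by 0.14 ± 0.16 and Cdc6 by 0.01 ± 0.36. Rrm2 was at 57.8 and 43.2 CPM in texAM and 35.3 and 39.1 CPM in tAM, without overlap. Bub1, which was not called in exAM over tAM or texAM over exAM either, was at 34.04 and 31.3 CPM in texAM and 24.7 and 15.8 CPM in tAM, also without overlap. In all, 8 of the 43 genes had both texAM libraries above both tAM libraries, beside 21.9% of all tested genes, and 8 had both below, beside 20.2%.

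Against HostAM, 0 of the 43 genes were called in texAM, beside 0.33% of all tested genes (0.248% higher, 0.0825% lower). In tAM over HostAM, 0 of the 43 were called, beside 0.0413% of all tested genes (0.0206% higher, 0.0206% lower). At an unadjusted p under 0.05 there were 3 genes in each comparison, beside 13.2% of all tested genes for texAM and 10.0% for tAM; DESeq2's Wald test called 0 in both. Log2 fold changes ran from -0.77 to 0.68 for texAM over HostAM and from -0.89 to 0.46 for tAM over HostAM. Aurkb gave log2 fold change -0.77 ± 0.24 SE, adjusted p = 0.211 for texAM and log2 fold change -0.89 ± 0.24 SE, adjusted p = 0.246 for tAM. Both texAM libraries lay below both HostAM libraries for 14 of the 43 genes, beside 21.0% of all tested genes, and both tAM libraries did so for 12, beside 18.7%. Both lay above for 5 (beside 21.8%) and 4 genes (beside 19.1%).

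Levels were divided by transcript length to set genes side by side. Length does not remove the other difference between thickly and thinly covered genes, which is that counts of the thickly covered ones, such as Mki67, followed depth less, and its part in the order of the genes was not tested. In the lung, over the 6 libraries, Mki67 was the highest of the 43 genes with 60.7 CPM per kb, followed by Pcna with 49.1, Bub1b with 41.6, Top2a with 41.2 and Ccnb2 with 37.7. The lowest were Cdc6 with 3.78, Ccne1 with 4.16 and Ccne2 with 4.49 CPM per kb, and the means of the 3 lung groups overlapped between Cdc6 and Ccne1 and between Ccne1 and Ccne2 but not between Cdc6 and Ccne2. Those of Bub1b, Top2a and Ccnb2 also overlapped, whereas those of Mki67, Pcna and Bub1b were apart. In exAM, Mki67 with 79.3 and Pcna with 54.5 CPM per kb were again first and second. E2f2 was 20th in exAM with 10.3 CPM per kb, against 34.5 in the lung, and Tk1 was 18th with 14.5, against 37.4. Cdc20 was 40th in exAM with 2.73 CPM per kb.

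**Figure D5:**
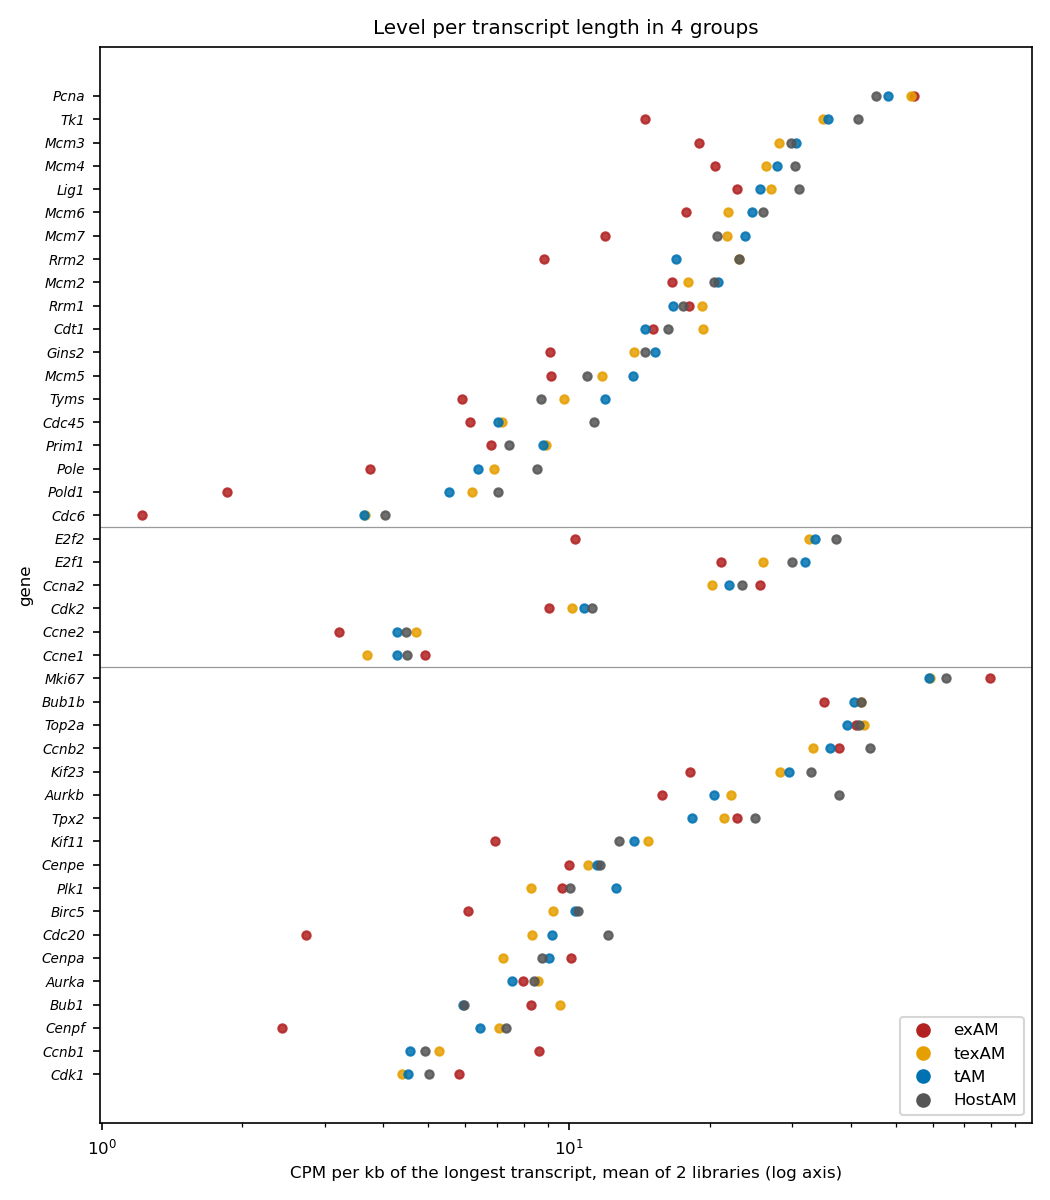
CPM per kb of each gene's longest annotated transcript (log axis), mean of 2 libraries per group, with genes ordered by the lung mean within replication, S phase entry and mitosis. Red points (exAM) lie far to the left for Tk1, Pold1, Cdc6, E2f2, Cdc20 and Cenpf and to the right for Mki67 and Ccnb1, and the 3 lung groups lie close together for most genes.

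Other genes of the same processes were counted from lists drawn up with earlier results of these data known. Of 49 other replication genes, 1 (2.04%) was higher and 12 (24.5%) were lower in exAM than in tAM, with a median log2 fold change of -0.24. The lower share was close to the 23.2% of all tested genes, and the higher share stood beside 21.5%. In exAM over HostAM 4 were higher and 8 (16.3%) were lower, beside 20.9% and 23.3% of all tested genes, with a median of -0.28. The higher one was Chaf1b, a chromatin assembly subunit (log2 fold change 0.59 ± 0.20 SE, adjusted p = 0.0347). The lowest were Timeless, of the fork protection complex (log2 fold change -1.70 ± 0.31 SE, adjusted p = 0.00137), Pold2, the partner of Pold1 (log2 fold change -1.37 ± 0.27 SE, adjusted p = 0.00205), and Rpa3, of the single-strand binding complex (log2 fold change -1.31 ± 0.38 SE, adjusted p = 0.0180). In texAM over exAM, 10 (20.4%) were higher and 3 (6.12%) lower, beside 23.2% and 20.5% of all tested genes. Cdc7, the kinase that fires origins (log2 fold change 1.88 ± 0.55 SE, adjusted p = 0.0186), Rpa3 (log2 fold change 1.32 ± 0.38 SE, adjusted p = 0.0173) and Timeless (log2 fold change 1.27 ± 0.31 SE, adjusted p = 0.00742) had the largest increases, and Chaf1b (-0.73), Pold3 (-0.56) and Rfc1 (-0.35, log2 fold changes) were the lower ones.

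Of 70 other mitosis genes tested, 2 (2.86%) were higher and 15 (21.4%) were lower in exAM than in tAM, beside 21.5% and 23.2% of all tested genes, with a median of -0.34. This median was below the -0.24 of the other replication genes, the opposite order to the -0.07 of the 18 mitosis genes and -0.59 of the 19 replication genes described first. In exAM over HostAM 1 was higher and 24 (34.3%) were lower, beside 20.9% and 23.3% of all tested genes, with a median of -0.47. Psrc1 (log2 fold change 1.36 ± 0.39 SE, adjusted p = 0.0175) and Plk4, the kinase of centriole duplication (log2 fold change 0.64 ± 0.24 SE, adjusted p = 0.0481), were higher. Espl1, the separase that cuts cohesin (log2 fold change -1.94 ± 0.33 SE, adjusted p = 0.000998), Cenpt, of the inner kinetochore (log2 fold change -1.88 ± 0.32 SE, adjusted p = 0.00101), and Cit, a kinase of cytokinesis (log2 fold change -1.80 ± 0.21 SE, adjusted p = 7.84e-05), were the lowest. In texAM over exAM, 19 (27.1%) were higher and 1 (1.43%) was lower, beside 23.2% and 20.5% of all tested genes. Kifc1, a minus-end kinesin (log2 fold change 2.04 ± 0.55 SE, adjusted p = 0.0127), Cit (1.83) and Espl1 (1.67) led the higher ones, and Psrc1 (-1.67) was the lower one.

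Of 31 cell cycle regulators tested, 9 (29%) were higher and 7 (22.6%) were lower in exAM than in tAM, beside 21.5% and 23.2% of all tested genes, with a median of 0.29. In exAM over HostAM 6 (19.4%) were higher and 7 (22.6%) lower, beside 20.9% and 23.3%, with a median of -0.05. Cdkn1c, a CDK inhibitor, had 139 and 117 counts in exAM, 19 and 12 in texAM, 2 and 1 in tAM and 0 and 1 in HostAM. The ratio of exAM to tAM, corrected for library size, was 115 with a 95% counting interval of 38.9 to 561 (adjusted p = 5.60e-05). Cdkn2a, the locus of p16 and p19ARF, had 30 and 43 counts in exAM, 0 and 2 in texAM, 4 and 0 in tAM and 0 and 14 in HostAM (adjusted p = 0.0413 for exAM over tAM). The counts were low and 1 HostAM library was well above the other lung libraries.

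Rb1, the repressor of E2F factors, was 2.47-fold higher in exAM than in tAM (log2 fold change 1.30 ± 0.19 SE, adjusted p = 0.000344). Lower were Pkmyt1, which holds CDK1 inactive (log2 fold change -1.41 ± 0.27 SE, adjusted p = 0.00193), Fbxo5, an inhibitor of the anaphase-promoting complex (log2 fold change -1.20 ± 0.39 SE, adjusted p = 0.0280), and Cdkn1b, another CDK inhibitor (log2 fold change -1.16 ± 0.16 SE, adjusted p = 0.000282). In texAM over exAM 6 regulators (19.4%) were higher and 6 lower, beside 23.2% and 20.5% of all tested genes. Pkmyt1 (1.70), Cdkn1b (1.47) and E2f7 (1.19) were higher, and Cdkn1c (-3.63) and Rb1 (-1.03, log2 fold changes) were lower. Cdkn2a was also lower in texAM than in exAM (adjusted p = 0.0255), with 2 counts in texAM and 73 in exAM, a ratio of 0.0184 with a counting interval of 0.00218 to 0.0688. In texAM over tAM 0 of the genes on these 3 lists were called by edgeR's quasi-likelihood test or by DESeq2's Wald test. The former called 0.00688% of all tested genes. At an unadjusted p under 0.05 in edgeR's test there were 5, beside 7.84% of all tested genes. They were 0 of 49 other replication genes, 4 of 70 other mitosis genes and 1 of 31 regulators.

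Replicate libraries of exAM agreed less well with each other than those of the lung groups for these genes. The median size of the log2 ratio between replicates was 0.30 in exAM, 0.14 in texAM, 0.19 in tAM and 0.23 in HostAM. The largest gap in exAM was for Cdc20 (1.23). exAM replicate 1 was the higher library by a median of 0.27 on the log2 scale.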

How the data were processed

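RNA-seq counts of 8 libraries (2 for each of 4 groups, each a pool of 3 mice) were used. RNA was amplified from a small input by single-primer isothermal amplification before library construction, per the labels' protocols, and PCR followed, with no molecular identifiers named. The deposited values were counts, whole numbers of reads per Ensembl gene for 37310 genes, with symbols in the table, which the authors made with Bowtie and HTSeq 0.6.1 on mm10 (GRCm38), per the submitters' processing notes. The strand setting and the treatment of duplicate reads are not given in the sources used here. Columns were matched to samples by group name and replicate number, with texAM abbreviated in the header.

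The 43 genes, the gene lists and the tests were chosen with earlier results of these data known. Genes were filtered with edgeR 4.0.16 (filterByExpr, minimum of 10 counts), which left 14537, and scaled by TMM. A quasi-likelihood model with 1 coefficient per group was fitted to all 8 libraries (robust, 4 residual degrees of freedom, biological coefficient of variation 0.22, R 4.3.3), and the 6 pairwise comparisons were tested, with Benjamini-Hochberg adjustment over all tested genes and a threshold of 0.05. The SE of a log2 fold change was taken from the test statistic. CPM are counts per 1000000 counts of the TMM-scaled library, and CPM per kb divide by the longest GENCODE M21 transcript. The scripts were tested on simulated counts. Depth was 6546272 to 9154128 counts per library, which limits precision for genes with few counts, and counting intervals cover counting error only. Replicates differed by more than sampling noise, so none was merged.

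All 43 genes are named. From the lists of other replication genes, other mitosis genes and regulators, up to 3 called genes per direction with the largest fold changes in exAM over tAM, texAM over exAM and texAM over tAM are named. Other settings tried were a fit without the filter, one with at least 50 counts, scaling by library size, DESeq2 1.42.0 size factors and Wald test, the replicate number as a block, fits of only the 4 libraries compared and leaving out each library. TMM over genes with under 0.1 counts per base was added after seeing the data. Promoter windows came from RefSeq on GRCm38.p6, and 33 of the 40 windows were found in sense in an annotated transcript by their bases after the start.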

Additional observations from a re-analysis of the deposited data

How the results depend on the processing

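Of 4128 values of single genes under other settings, 3969 kept their direction and their side of the threshold, 114 lost a call, 45 gained one and 0 reversed a called direction; 187 differed in sign without a call in either setting. Calls kept in every setting were 8 of 19 for exAM over tAM (Cdc20, Cenpf, E2f2, Kif11, Mcm7, Pold1, Tk1 and Tyms), 11 of 20 for exAM over HostAM and 7 of 14 for texAM over exAM (Cenpf, E2f2, Kif11, Mcm7, Pold1, Rrm2 and Tk1). Genes higher in exAM than in tAM (2) numbered 1 with no filter, 0 with library size alone and 1 to 2 when a library was left out; those lower (17) numbered 10 to 18, with 10 without tAM replicate 1 and 10 without exAM replicate 2. Genes higher in texAM than in exAM (13) numbered 7 to 13, with 7 without exAM replicate 2, and those lower (1) 0 with library size, 4 with thinly covered genes and 0 to 1 with a library left out. Genes higher in exAM than in HostAM (2) numbered 1 with no filter, a minimum of 50 counts or the Wald test, 0 with library size or only 4 libraries, and 0 to 1 with a library left out, and those lower (18) 11 to 20, with 11 without exAM replicate 2. With no filter 1 gene was lower in texAM than in HostAM and 1 in tAM than in HostAM, against 0 with the filter. Mean summed CPM changed with scaling, under library size and under thinly covered genes in turn: 741 and 910.2 against 822.8 (replication, exAM), 1537 and 1886 (mitosis, exAM), 1194 and 1055 (replication, texAM), 1185 and 1126 (replication, tAM), 1687 and 1604 (mitosis, tAM), and 1542 under thinly covered genes for mitosis in texAM. Over all tested genes the share of calls that were higher in exAM than in tAM was 48.0%, 34.5% with library size and 58.8% with thinly covered genes, with median log2 fold changes of -0.09, -0.29 and 0.08. The cause of these changes was not tested. The labels give the groups the same replicate numbers without saying that a number marks a shared batch, and the correlations of replicate differences ran from -0.06 to 0.01, so the numbers were not taken as pairs; with the number as a block, exAM over HostAM had 1 higher gene, and exAM over tAM had 9 lower replication genes, 1 lower S phase entry gene, 5 lower mitosis genes and 2 higher ones. With 2 pools per group, the tests see large differences in well-counted genes best; genes such as Cdc20 and Cdc6 rest on few counts in exAM.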

Other observations

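Counts followed depth less in thickly covered genes than in thinly covered ones. Between texAM replicate 1, the deepest library, and tAM replicate 2, a shallower one, the median log2 ratio of counts was 0.70 for genes under 0.01 counts per base and 0.05 for genes at 1 or more. Between exAM and tAM the same medians were -1.20 and -0.13. Mki67, at 0.5 to 1 counts per base, lay in a class with a median of -0.24, and the other 42 genes lay between 0.01 and 0.5 counts per base, in classes with medians from -0.85 to -0.30.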
